A study of Homo sapiens with 10 samples.

Results

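Cytosolic ribosomal protein genes, the genes whose products are assembled with ribosomal RNA into the large and small subunits of the ribosome, were followed across 10 RNA-seq libraries of PC3, an established human prostate cancer cell line. Members were the protein-coding genes named RPL or RPS plus a number (with an optional A, L or X), together with RPLP0, RPLP1, RPLP2 and RPSA. Kinases of the RPS6K family, genes of chromosome Y and pseudogenes were left out. Of 57445 gene identifiers in the count tables, 51488 had a symbol, and 81 were members, 49 of the large subunit and 32 of the small. They lay on 21 chromosomes, 4 of them on X.

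The groups held 2 libraries each. PC3 cells stably carried the hairpin RNF2 shRNA1 or RNF2 shRNA2, were exposed to PRT4165 or GW-516 for 48 hours, or stably carried a Scramble shRNA control. RNF2 is the catalytic subunit of Polycomb repressive complex 1 (PRC1), and PRT4165 is known as an inhibitor of its ubiquitin ligase activity. The labels name GW-516 with no further description. In the file headers the GW-516 libraries are called Th4, those labelled RNF2 shRNA2 are called 20155, and MDV3 stands in place of PC3 in all 10 names. The name of RNF2 shRNA2 replicate 2 alone carries the further tag L005only. No source used here says what those names or the tag stand for, so the compound, hairpin and cells are given as labelled. The labels name neither a dose, a vehicle control nor separate cultures. A change of a compound group against Scramble shRNA therefore cannot be told apart from that of vehicle, hairpin or culture, and p-values measure the spread between these libraries, which may be technical.

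A ribosome carries 1 copy of nearly every such protein, and its RNA and protein parts are joined in the nucleolus by a large set of assembly factors. In human cells most ribosomal protein mRNAs begin with a cytidine and a run of pyrimidines, the 5′ terminal oligopyrimidine (TOP) tract, through which mTOR and the RNA-binding protein LARP1 control their translation. Unassembled RPL5 and RPL11, in a particle with 5S ribosomal RNA, bind MDM2. Several members have a paralogue of narrower expression, such as RPL3L in muscle and RPL10L in testis.

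The start of the transcript is shown for 6 members on which later values turn. RPL3, RPLP0 and RPS6 had large decreases in the GW-516 group. RPS25 had a large increase in RNF2 shRNA1, and RPL39 rose in both hairpin groups. RPS27L moved apart from its partner RPS27. Each window has 30 bases, 10 before the RefSeq start and the rest from it, read 5′ to 3′ on the coding strand of GRCh38.p14. Capitals mark the unbroken run of C and T that begins with C at the start.
RPL3: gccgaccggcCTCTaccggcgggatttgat
RPLP0: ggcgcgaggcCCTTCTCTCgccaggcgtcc
RPS6: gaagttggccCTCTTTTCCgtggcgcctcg
RPS25: gcagcgcttcCTTTTTgtccgacatcttga
RPL39: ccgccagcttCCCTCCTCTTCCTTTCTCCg
RPS27L: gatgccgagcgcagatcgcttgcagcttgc
These windows lie at chr22:39319604-39319633 (minus strand) for RPL3, chr12:120201092-120201121 (minus) for RPLP0, chr9:19380217-19380246 (minus) for RPS6, chr11:119018324-119018353 (minus) for RPS25, chrX:119791611-119791640 (minus) for RPL39 and chr15:63157458-63157487 (minus) for RPS27L. The run was 19 bases in RPL39, 9 in RPLP0 and RPS6, 6 in RPS25 and 4 in RPL3, and RPS27L had none.

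With a tract defined as C at a listed start and at least 5 pyrimidines in a row, 46 of the 64 members with a RefSeq start (71.9%) had one, against 1404 of 27305 genes (5.14%). The share was 71.8% in the large subunit and 72.0% in the small. Of translation factors and other genes listed for their known TOP mRNAs, 11 of 12 had one, a high share that this choice fixed in advance. Only 5 of 46 ribosome biogenesis genes (10.9%) and 5 of 67 mitochondrial ribosomal protein genes (7.46%) had a tract. The core letters of an ETS site, CCGGAAG on either strand within 250 bases before the start, were found in 34.4% of members and 10.2% of all genes. One such window, in RPS6 at chr9:19380322-19380351 (minus), holds the letters in capitals.
RPS6 upstream: attaatctcgcCCGGAAGtaccgcccaccc
The same letters were present in 39.1% of ribosome biogenesis genes and 35.8% of mitochondrial ribosomal protein genes. TATAAA was found in 4.69% of members and 8.38% of all genes. A match is a run of letters and says nothing of binding.

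**Figure D1:**
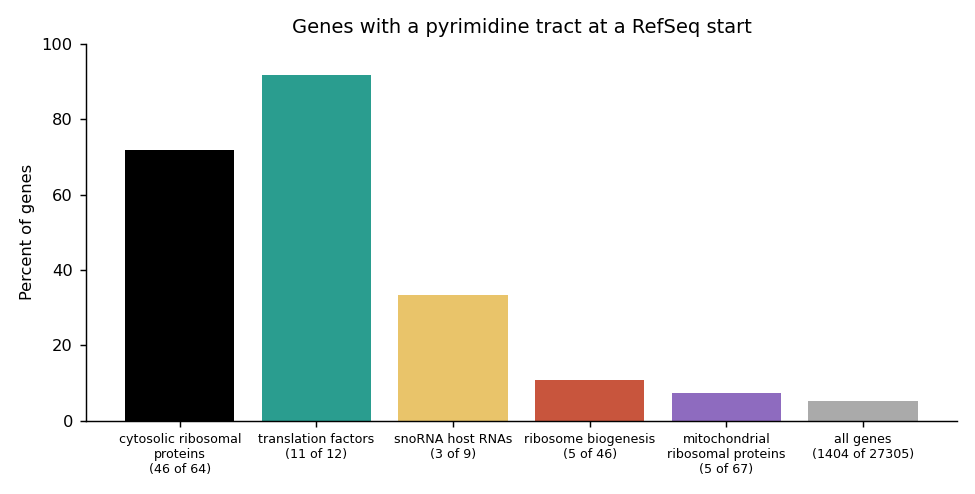
Percent of genes (y axis) with C at a RefSeq start followed by a pyrimidine run of at least 5 bases in all, for 6 gene sets (x axis, with counts). Cytosolic ribosomal proteins (71.9%) stand far above all genes (5.14%), while ribosome biogenesis (10.9%) and mitochondrial ribosomal protein genes (7.46%) lie near all genes. The bar drawn as translation factors is a list of such factors and other genes chosen for known TOP mRNAs, so its height was fixed by that choice.

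Total counts per library ran from 65877850 to 108380198. The targeted gene was checked in each group first. RNF2 averaged 12.0 CPM (counts relative to library size, scaled by TMM) in RNF2 shRNA1 cells against 29.5 CPM in Scramble shRNA cells, a log2 change of -1.29 ± 0.06 (SE; edgeR adjusted p = 2.34e-15). Its level was 34.4 CPM in the libraries labelled RNF2 shRNA2, 0.23 higher on the log2 scale than in Scramble shRNA cells (edgeR adjusted p = 0.00104), which goes against the label. BMI1, another PRC1 subunit, averaged 57.3 CPM there, against 253 CPM in Scramble shRNA cells. The epithelial genes EPCAM and KRT18 were expressed in every group, and the prostate gene KLK3 stayed at or below 0.0143 CPM. Of 5 haematopoietic markers 2 passed the filter and neither was called in any of the 6 comparisons, none averaged over 0.259 CPM in a group, and CD3E had no counts. Of the 3 stromal and endothelial markers tested, 3 rose in GW-516, 2 in PRT4165, 1 in RNF2 shRNA1 and 2 in the RNF2 shRNA2 group. ACTA2 averaged 2.53 CPM in RNF2 shRNA1, 3.35 CPM in PRT4165 and 2.95 CPM in GW-516 cells, against 1.66 CPM in Scramble shRNA cells, and VWF, LUM and DCN at most 0.193 CPM in any group. Epithelial markers moved with the compounds in both directions. Of 5, 4 rose after each, with KRT19 at 783 CPM in GW-516 cells and 484 CPM in Scramble shRNA cells, while KRT18 fell after each, with 321 CPM in PRT4165 and 382 CPM in GW-516 cells, against 439 CPM in Scramble shRNA cells. The part of these markers in the results was not tested.

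Members differed between the 2 libraries labelled RNF2 shRNA2. Replicate 2 had 108380198 total counts and the header tag L005only, and the part of depth or tag in that difference was not tested. Over the 77 members averaging at least 1 CPM, the median log2 difference of replicate 2 minus replicate 1 was -0.20, with 3 of 77 higher, whereas the median over all genes was 0.00. In the other groups that median lay between -0.01 and 0.02. Counts of the RNF2 shRNA1, GW-516 and Scramble shRNA pairs differed little more than sampling gives. Chi-square per degree of freedom was 2.19 in RNF2 shRNA1, 2.20 in GW-516 and 2.15 in Scramble shRNA, or 1.09, 1.10 and 1.08 for the same groups when halved because both reads of a fragment were counted. It was 12.2 in RNF2 shRNA2 and 6.89 in PRT4165. Key counts are therefore also given without the libraries labelled RNF2 shRNA2, and with each of those 3 close pairs summed to 1 sample. Summing leaves RNF2 shRNA1, GW-516 and Scramble shRNA with 1 sample each, so that the spread then comes from the PRT4165 and RNF2 shRNA2 pairs alone and the lone samples are assumed to vary like them. For comparisons with Scramble shRNA, the share of all genes called under each of these fits is given beside the members' counts.

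Ribosomal protein genes took a smaller part of all counts in both compound groups than in Scramble shRNA cells, and a larger part in RNF2 shRNA1 cells. The share was 4.20% and 4.16% in the GW-516 libraries, 4.44% and 4.55% in the PRT4165 libraries, 4.99% and 5.00% in the RNF2 shRNA1 libraries and 4.80% and 4.29% in the libraries labelled RNF2 shRNA2, against 4.83% and 4.81% in the Scramble shRNA libraries. Both compound groups and RNF2 shRNA1 did not overlap with Scramble shRNA, and the libraries labelled RNF2 shRNA2 lay below it by unequal amounts. For replicate 1 of RNF2 shRNA2 that direction turned with the scaling: its members summed to 49010 TMM-scaled CPM, against 48530 and 48400 in the Scramble shRNA libraries. With 2 libraries against 2, no exact permutation test can pass 0.05. A lower share in bulk RNA cannot separate less ribosomal protein mRNA from more of other RNA, nor fewer cells of a type from less RNA per cell.

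The ratio of large to small subunit counts varied little. Its group mean was 1.38 in RNF2 shRNA1, 1.37 in RNF2 shRNA2, 1.41 in PRT4165 and 1.385 in GW-516, against 1.399 in Scramble shRNA. The difference between the subunits' median log2 changes against Scramble shRNA was 0.02 in GW-516 and in PRT4165, 0.03 in RNF2 shRNA1 and -0.03 in RNF2 shRNA2.

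**Figure D2:**
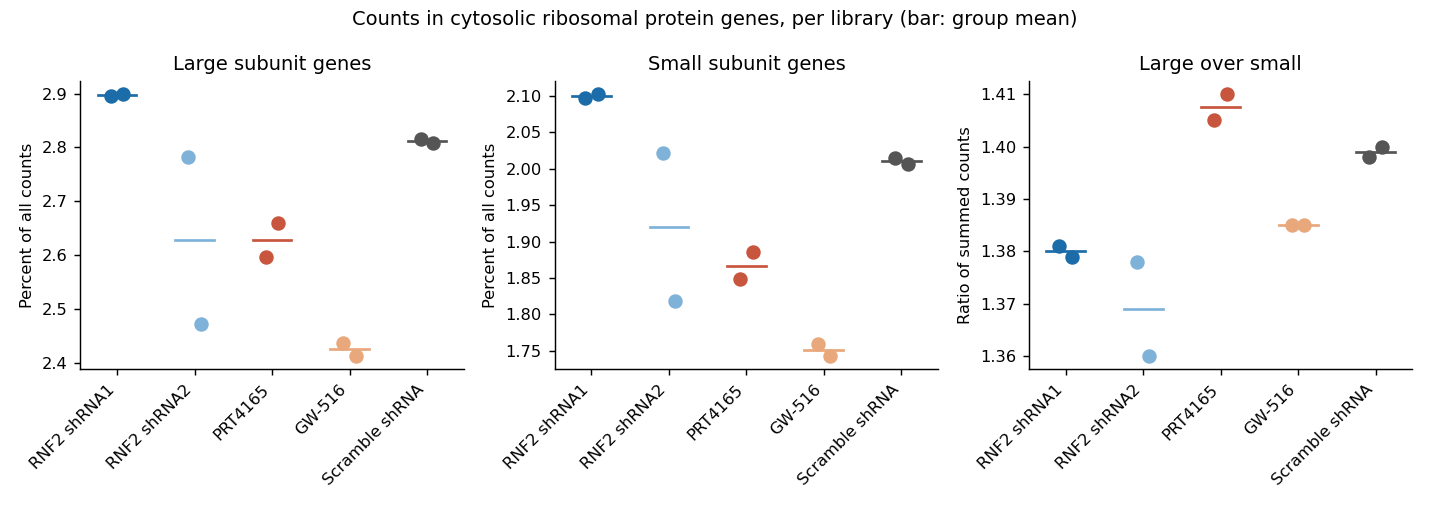
Percent of all counts in large (left) and small (middle) subunit genes and their ratio (right), 1 point per library and a bar for the group mean; the y axes do not start at 0. Both GW-516 libraries lie lowest in the large and small subunit panels, and the libraries labelled RNF2 shRNA2 lie apart from each other.

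Of the 81 members, 79 passed the filter on low counts, 48 of the large subunit and 31 of the small. RPL10L, with 26 counts in all libraries together, was not tested. Per kilobase of annotated exon, high levels over all libraries were those of RPS12 (837 CPM per kilobase), RPS4X (634), RPL8 (592) and RPS24 (589), and low ones those of RPL3L, RPL10L, RPL36A and RPL17. The levels of RPL36A and RPL17 are uncertain. Named pseudogenes of RPL36A held 1311% of its counts and those of RPL17 76.3%, and RPL17 shares 32.0% of its exon bases with the read-through gene RPL17-C18orf32. RPS10 shares 28.9% with RPS10-NUDT3. These levels hold only as counted, since no source used here says how ambiguous reads were treated.

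After GW-516, ribosomal protein genes of both subunits were lower than in Scramble shRNA cells, most by a modest amount. Of 79 members 51 fell and 2 rose, against 29.0% of all genes tested lower and 26.5% higher. The median log2 change was -0.26 (quartiles -0.34 and -0.22), against 0.00 over all genes. In the large subunit 31 of 48 fell, with a median of -0.26, and in the small subunit 20 of 31 fell, with a median of -0.28. Both GW-516 libraries lay below both Scramble shRNA libraries for 74 members (40.1% of all genes) and above them for 3 (38.7%). Highly expressed genes as a class were also lower: of 2447 other genes averaging at least 100 CPM, 58.3% fell and 24.2% rose, with a median of -0.15, while of the 72 members at that level 68.1% fell and none rose, with a median of -0.27. The count of members lower was 74 without the libraries labelled RNF2 shRNA2, where 29.8% of all genes were lower, and 41 with close pairs summed, where 18.02% were.

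RPL3, a large subunit protein near the peptidyl transferase centre, had 859 and 850.5 CPM in the GW-516 libraries, against 1212 and 1217 CPM in the Scramble shRNA libraries. The groups did not overlap, and the log2 change was -0.51 ± 0.02 (SE; edgeR adjusted p = 8.68e-15). RPLP0, the base of the P stalk that recruits elongation factors, had 980 and 992 CPM in GW-516 libraries against 1397 and 1389 CPM in Scramble shRNA libraries, a log2 change of -0.50 ± 0.03 (edgeR adjusted p = 1.99e-13). RPS6, the small subunit protein phosphorylated by S6 kinases, had 567 and 558 CPM in GW-516 libraries against 766 and 758 CPM in Scramble shRNA libraries, a change of -0.44 ± 0.02 (edgeR adjusted p = 9.92e-14). In each of these genes both GW-516 libraries were the lowest of all 10. The decrease was not even across the P stalk: RPLP1 had 731 and 731 CPM in GW-516 libraries against 736 and 730 CPM in Scramble shRNA libraries, and it did not pass the test. RPLP2, which pairs with RPLP1 in the stalk, had 459 and 453 CPM in GW-516 libraries against 538 and 528 CPM in Scramble shRNA libraries, without overlap, and did not pass either (edgeR adjusted p = 0.0826).

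The 5S particle proteins fell with the rest. RPL5 had 816 and 809 CPM in GW-516 libraries against 1049 and 1059 CPM in Scramble shRNA libraries, a log2 change of -0.37 ± 0.03 (SE; edgeR adjusted p = 9.86e-10). RPL11 changed by -0.25 ± 0.04. RPS19, a small subunit protein mutated in Diamond-Blackfan anaemia, changed by -0.17 ± 0.04. All 3 passed the edgeR test, RPS19 not with close pairs summed (adjusted p = 0.0645). RPSA, the small subunit protein also known as the laminin receptor precursor, changed by -0.42 ± 0.03.

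Members that did not fall included the paralogue RPS27L, which had 52.1 and 49.7 CPM in GW-516 libraries against 44.1 and 43.3 CPM in Scramble shRNA libraries. Its log2 change was 0.22 ± 0.06 (SE; edgeR adjusted p = 0.00195, or 0.0655 with close pairs summed), while its partner RPS27 changed by -0.23 ± 0.05. RPL3L rose at very low counts: it had 15 and 20 counts in the GW-516 libraries and 0 and 2 counts in the Scramble shRNA libraries. Summed over a group, that is 0.213 CPM without scaling in GW-516 (95% exact Poisson interval 0.148 to 0.296, counting error only) and 0.0145 CPM in Scramble shRNA (0.00175 to 0.0523). RPL3L had at most 8 counts in any library outside GW-516, so it passed the filter through the GW-516 libraries alone. Its call (edgeR adjusted p = 0.00491, lost under 3 alternatives) depended on that filter and is no separate support for a rise. RPL39L, a large subunit paralogue of RPL39 lining the exit tunnel, had 33.0 and 31.7 CPM in GW-516 libraries against 50.2 and 50.6 CPM in Scramble shRNA libraries, a log2 change of -0.64 ± 0.06 and the largest decrease among the members called. RPL39 itself had 118.5 and 117 CPM in GW-516 libraries against 115.7 and 115.7 CPM in Scramble shRNA libraries and did not pass the test.

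After PRT4165 the members were lower by less. Of 79 members 30 fell and 2 rose, against 21.7% of all genes lower and 19.9% higher, and the median log2 change was -0.12, against -0.01 over all genes. In each subunit 15 members fell and 1 rose. Both PRT4165 libraries lay below both Scramble shRNA libraries for 68 members (35.7% of all genes) and above them for 5 (32.6%). Among other genes averaging at least 100 CPM 42.8% fell, close to the 40.3% of members at that level. The count of members lower depended on the libraries: 60 without those labelled RNF2 shRNA2, where 22.8% of all genes were lower, and 7 with close pairs summed, where 11.6% were.

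RPSA had 710 and 711 CPM in PRT4165 libraries, against 844 and 838 CPM in Scramble shRNA libraries. Its log2 change was -0.24 ± 0.03 (SE; edgeR adjusted p = 1.16e-05) without overlap. RPL24, a large subunit protein at the bridge to the small subunit, changed by -0.22 ± 0.03. RPL39L again had the largest decrease among members called, -0.31 ± 0.06. RPL5 changed by -0.13, RPL11 by -0.10, RPLP0 by -0.14 and RPS6 by -0.11. All 4 were called, but RPL11 lost its call under 8 alternatives, with an edgeR adjusted p of up to 0.274. With close pairs summed RPL5 (edgeR adjusted p = 0.115), RPLP0 (0.0649) and RPS6 (0.151) also lost theirs. RPS4X, a small subunit protein encoded on X, rose by 0.11 ± 0.03 (edgeR adjusted p = 0.0102) and lost its call under 3 alternatives, with an adjusted p of up to 0.16. RPL39 rose by 0.16 ± 0.06, but 12 alternatives lost its call, with an edgeR adjusted p of up to 0.36. Both members that rose lie on chromosome X, where the 579 other genes tested had a median log2 change of 0.09.

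GW-516 and PRT4165 were set against each other directly, although the labels give no doses, so that the difference is not one at a matched dose. Of 79 members 31 were lower after GW-516 than after PRT4165 and 2 were higher, against 23.0% of all genes lower and 18.1% higher. The median log2 difference was -0.15, against 0.00 over all genes, and both GW-516 libraries lay below both PRT4165 libraries for 72 members (35.6% of all genes) and above them for 2 (33.9%). Other genes averaging at least 100 CPM were lower in 52.8%, against 40.3% of members at that level. The largest decreases among the members called were RPLP0 (-0.35), RPL3 (-0.34), RPL39L (-0.33) and RPS6 (-0.32). The 2 called higher were RPS27L (0.19) and, at very low counts, RPL3L (2.855), which passed the filter through the GW-516 libraries alone. RPS27L lost its call under 3 alternatives and RPL3L under 6. RPS19 differed by -0.06 ± 0.04 and did not pass (edgeR adjusted p = 0.212).

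**Figure D3:**
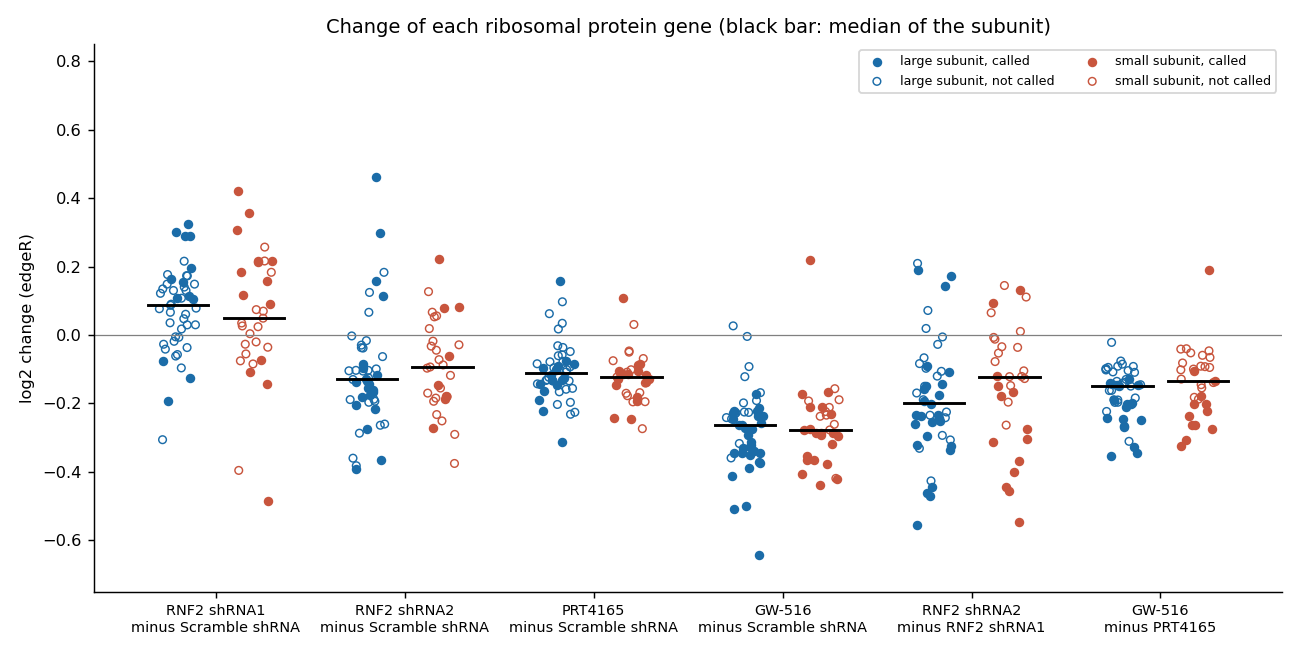
Log2 change (y axis, edgeR) of each of the 77 members averaging at least 1 CPM, in 6 comparisons (x axis), with large subunit genes in blue and small in red; filled points were called at an adjusted p below 0.05 and bars are subunit medians over the points shown. GW-516 minus Scramble shRNA has nearly all points below 0, with subunit medians of -0.26 and -0.28 over the members tested.

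In RNF2 shRNA1 cells members shifted the other way by a small amount, with exceptions in both directions. Of 79 members 20 rose and 7 fell, against 26.2% of all genes higher and 28.6% lower, so the share that rose was near the background and the share that fell was below it. The median log2 change was 0.07, against -0.01 over all genes. Both RNF2 shRNA1 libraries lay above both Scramble shRNA libraries for 52 members (37.8% of all genes) and below them for 20 (40.0%). Among other genes averaging at least 100 CPM 39.0% rose and 39.4% fell, against 26.4% and 9.72% of members at that level. Without the libraries labelled RNF2 shRNA2, 46 members rose and 12 fell, against 28.7% of all genes higher and 29.2% lower. With close pairs summed 11 rose and 1 fell, against 16.9% of all genes higher and 17.3% lower.

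RPS25, a small subunit protein needed for initiation at some viral internal entry sites, had 402 and 392 CPM in RNF2 shRNA1 libraries, against 298 and 295.5 CPM in Scramble shRNA libraries. The log2 change was 0.42 ± 0.03 (SE; edgeR adjusted p = 6.41e-11), and the RNF2 shRNA1 libraries were the highest of all 10. RPS27L rose by 0.36 ± 0.06 and its partner RPS27 by 0.22 ± 0.05. RPL13A, a large subunit protein with a role in interferon-gamma dependent translational silencing, rose by 0.32 ± 0.03, RPS12 by 0.31 ± 0.06 and RPL39 by 0.29 ± 0.06. Among those that fell were RPL6 (-0.19 ± 0.02), RPSA (-0.14 ± 0.03) and RPL18 (-0.12 ± 0.04). RPL18 lost its call under 4 alternatives, with an edgeR adjusted p of up to 0.244, and RPSA with close pairs summed (0.144). RPS26, a small subunit protein at the mRNA exit channel, had 178 and 169 CPM in RNF2 shRNA1 libraries against 243 and 243 CPM in Scramble shRNA libraries, a change of -0.49 ± 0.16 (edgeR adjusted p = 0.0468). Its call was lost under 12 alternatives, with an adjusted p of up to 0.432. RPLP0 (-0.03), RPS6 (-0.02), RPL11 (-0.01) and RPS19 (0.03) did not pass.

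In the libraries labelled RNF2 shRNA2, 22 of 79 members fell and 7 rose, against 21.0% of all genes lower and 21.1% higher. The median log2 change was -0.12, against 0.01 over all genes, and it rested on 1 library: it was -0.21 with replicate 2 alone and -0.03 with replicate 1 alone. Both libraries lay below both Scramble shRNA libraries for 41 members (33.9% of all genes) and above them for 12 (34.7%). Among other genes averaging at least 100 CPM 28.4% fell and 36.8% rose, against 27.8% and 9.72% of members at that level. With close pairs summed 13 members fell and 3 rose, against 13.2% of all genes lower and 10.8% higher.

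RPL39 had 147.5 and 171 CPM in the libraries labelled RNF2 shRNA2, against 115.7 and 115.7 CPM in Scramble shRNA libraries. It rose by 0.46 ± 0.06 (SE; edgeR adjusted p = 4.56e-05), and replicate 2 was here the higher library, unlike in most members. RPL10, a large subunit protein that joins late in assembly, rose by 0.30 ± 0.07, RPS4X by 0.22 ± 0.03, RPL22 by 0.16 ± 0.03 and RPLP0 by 0.11 ± 0.03. The call of RPL10 was lost under 3 alternatives, with an edgeR adjusted p of up to 0.148, and those of RPL22 (0.0603) and RPLP0 (0.19) with close pairs summed. RPL39, RPL10 and RPS4X are 3 of the 4 members on chromosome X, where the 579 other genes tested had a median log2 change of 0.20 here, -0.10 in RNF2 shRNA1, where RPL39 and RPS4X also rose, and 0.10 in GW-516, where RPS4X fell. The part of that in the members' changes was not tested. RPL7A, which had 712 and 600 CPM in the libraries labelled RNF2 shRNA2 against 861 and 860 CPM in Scramble shRNA libraries, fell by 0.39 on the log2 scale (SE 0.07; edgeR adjusted p = 0.00622). With only the groups compared RPL7A lost its call (adjusted p = 0.075). RPL26 fell by 0.37, RPL39L by 0.27 and RPS15A by 0.27, and RPL26 lost its call under 8 alternatives, with an edgeR adjusted p of up to 0.18.

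Between the hairpin groups, 35 of 79 members were lower and 5 higher in the libraries labelled RNF2 shRNA2 than in RNF2 shRNA1 libraries, against 29.2% of all genes lower and 29.9% higher. Both libraries labelled RNF2 shRNA2 lay below both RNF2 shRNA1 libraries for 49 members (38.3% of all genes) and above them for 8 (39.0%). The median log2 difference was -0.16, or -0.28 with replicate 2 alone and -0.08 with replicate 1 alone of the libraries labelled RNF2 shRNA2. RPL13A had 1118 and 1017 CPM in the libraries labelled RNF2 shRNA2 against 1472 and 1465 CPM in RNF2 shRNA1 libraries, a difference of -0.46 ± 0.03 (SE; edgeR adjusted p = 1.03e-10). RPS3A (-0.55), RPL9 (-0.56) and RPL7A (-0.47) were also lower, and RPL6 (0.19), RPL39 (0.17), RPLP0 (0.14) and RPS20 (0.13) were higher. RPL39 lost its call under 11 alternatives, with an edgeR adjusted p of up to 0.446, and its difference was 0.037 without RNF2 shRNA2 replicate 2. RPL9 lost its call under 3 (up to 0.162), RPS3A with only the groups compared (0.0508), and RPLP0 (0.084) and RPS20 (0.12) with close pairs summed.

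The comparisons with Scramble shRNA share its 2 libraries, so their values for a member are not independent. RPSA changed by -0.14 in RNF2 shRNA1, -0.18 in RNF2 shRNA2, -0.24 in PRT4165 and -0.42 in GW-516, while RPL5 changed by -0.08 in RNF2 shRNA1, -0.14 in RNF2 shRNA2, -0.13 in PRT4165 and -0.37 in GW-516. RPS4X changed by 0.21 in RNF2 shRNA1, 0.22 in RNF2 shRNA2, 0.11 in PRT4165 and -0.17 in GW-516. RPL3 changed by 0.10 in RNF2 shRNA1, -0.15 in RNF2 shRNA2, -0.16 in PRT4165 and -0.51 in GW-516. Each of these values passed the edgeR test with all libraries. RPL5 in RNF2 shRNA1 lost its call under 15 alternatives, with an edgeR adjusted p of up to 0.506, and RPS4X in PRT4165 under 3. With close pairs summed RPL5 in PRT4165 lost it too, as did RPSA (0.144) and RPL3 (edgeR adjusted p = 0.155) in RNF2 shRNA1.

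**Figure D4:**
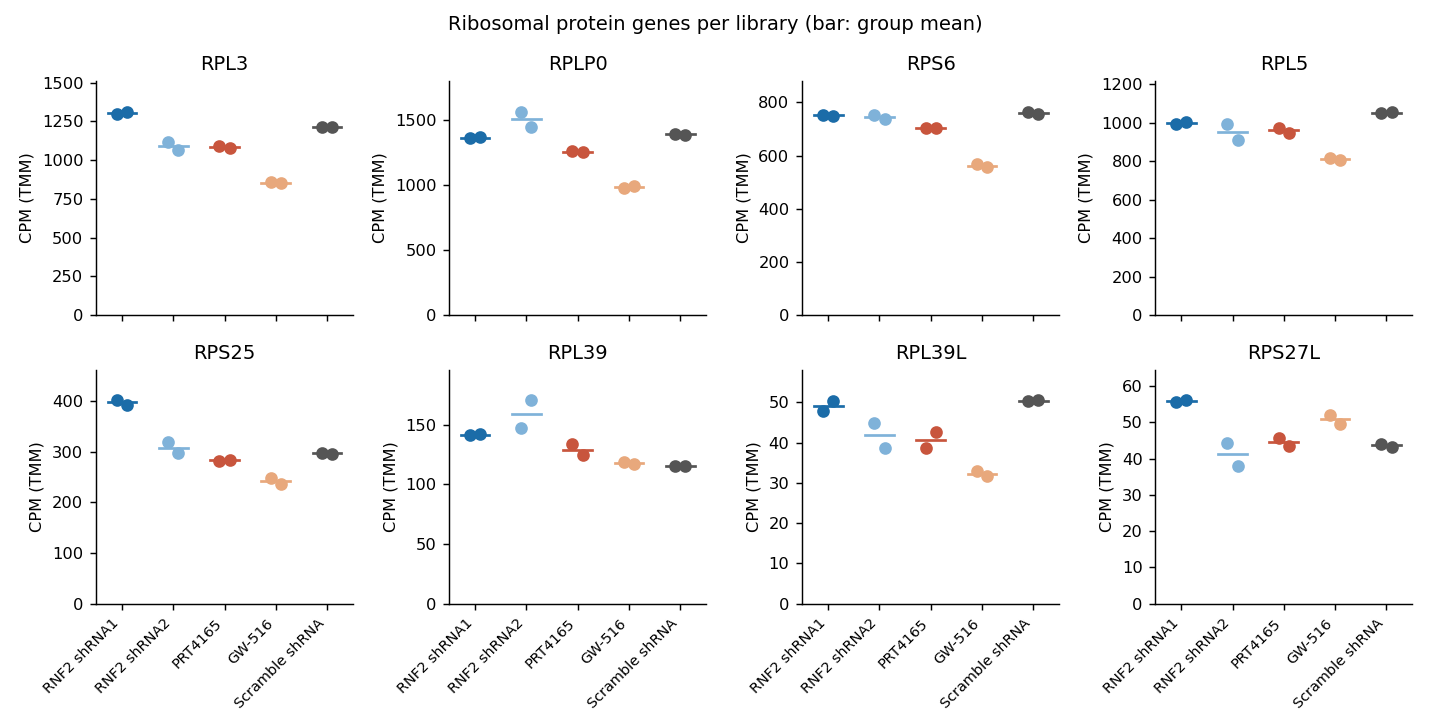
TMM-scaled CPM (y axis, from 0) of 8 members in each library, with a bar for the group mean. RPL3, RPLP0, RPS6 and RPL5 are lowest in both GW-516 libraries, RPS25 is highest in both RNF2 shRNA1 libraries, and RPL39 and RPL39L differ in which groups stand apart.

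The paralogue of each pair was read beside its widely expressed partner, per kilobase of exon. RPL39L averaged 40.4 CPM per kilobase and RPL39 61.9. RPS27L averaged 11.7 and RPS27 457. RPL3L (0.0220) and RPL10L (0.0410) were close to absent beside RPL3 (232) and RPL10 (197). The gaps depended on the length used. Per kilobase of the principal transcript RPL39L averaged 57.2 CPM and RPL39 331, RPS27L 7.35 and RPS27 1203, RPL3L 0.0278 and RPL3 770, and RPL10L 0.0408 and RPL10 418, so that all 4 gaps were wider. The principal transcript of RPS27L has 6434 bases, more than the 4037 exon bases over which its reads were counted. Its value of 7.35 may therefore be too low.

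The medians were also read by TOP tract. After GW-516 the median log2 change was -0.25 in the 46 members with a tract and -0.26 in the 17 tested members with a start and no tract. After PRT4165 it was -0.12 in each, in RNF2 shRNA1 0.10 and 0.03, and in the libraries labelled RNF2 shRNA2 -0.10 and -0.13. A member counted as having a tract if any listed start did, and starts were not measured in these cells. A member without one here may still have a tract in these cells. No test was made of these differences.

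Other parts of the translation machinery were read from lists in the same fit. A list of genes known for TOP mRNAs held translation factors and also HNRNPA1, NAP1L1, TPT1, NACA and BTF3, which are not such factors. All 18 of its tested genes fell after GW-516 (median log2 change -0.31), against 29.0% of all genes. Of the genes averaging at least 100 CPM, members left out, 58.3% fell. The 18 included EIF3K, a subunit of initiation factor 3 (-0.61 ± 0.03), and EIF4B, a helicase cofactor of initiation (-0.48 ± 0.03). After PRT4165 9 fell and 2 rose, against 21.7% of all genes lower and 19.9% higher. In RNF2 shRNA1 cells 11 rose and 2 fell (median 0.19), against 26.2% of all genes higher and 28.6% lower. Those that rose included EIF4A2 (0.59 ± 0.03) and EEF1A1, the elongation factor that delivers aminoacyl-tRNA (0.43 ± 0.02). The libraries labelled RNF2 shRNA2 had 7 higher and 3 lower, against 21.1% of all genes higher and 21.0% lower, with EIF4B at -0.58.

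In both hairpin groups the median of ribosome biogenesis genes lay on the other side of 0 from that of the ribosomal proteins. In RNF2 shRNA2 the ribosomal protein median rested on 1 library, at -0.214 without replicate 1 and -0.026 without replicate 2. Of 54 biogenesis genes 48 fell and 4 rose in RNF2 shRNA1 cells (median -0.37), against 28.6% of all genes lower and 26.2% higher. Of 79 members 20 rose there and 7 fell, so the share that rose was near that of all genes. DKC1, the pseudouridine synthase of box H/ACA particles, changed by -0.95 ± 0.03. Of the 54 biogenesis genes 38 rose and 3 fell in the libraries labelled RNF2 shRNA2 (median 0.17), against 21.1% of all genes higher and 21.0% lower. Of 79 members 22 fell there and 7 rose. MYC, a transcription factor that drives ribosome synthesis, rose by 0.59 ± 0.02. Between the hairpin groups 46 biogenesis genes were higher and 1 lower in the libraries labelled RNF2 shRNA2 (median 0.53). Of all genes 29.9% were higher and 29.2% lower there. UTP14A, a factor of small subunit processing, differed by 1.79 ± 0.05. After GW-516 47 biogenesis genes fell and 2 rose (median -0.28), against 29.0% of all genes lower and 26.5% higher. The nucleolar protein NPM1 changed by -0.47 ± 0.02. After PRT4165 45 fell and none rose (median -0.23), against 21.7% of all genes lower and 19.9% higher. NOP56 changed by -0.34 ± 0.03. No test was made of the difference between lists.

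Mitochondrial ribosomal proteins, which build the ribosome of mitochondria, fell after both compounds. Of 75, 59 fell and 1 rose after GW-516 (median -0.25), against 29.0% of all genes lower and 26.5% higher. After PRT4165 57 fell and none rose (median -0.20), against 21.7% lower and 19.9% higher. In RNF2 shRNA1 cells 44 fell and 9 rose (median -0.15), against 28.6% lower and 26.2% higher. Among the libraries labelled RNF2 shRNA2, 17 rose and 13 fell (median 0.01), near the 21.1% and 21.0% of all genes. Of the 7 ribosomal protein genes with other names, 6 fell after GW-516, among them RACK1, a scaffold on the small subunit (-0.28 ± 0.02), and 6 after PRT4165, while in RNF2 shRNA1 cells 3 fell, among them RPL7L1 (-0.42 ± 0.03), and in the libraries labelled RNF2 shRNA2 1 fell.

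**Figure D5:**
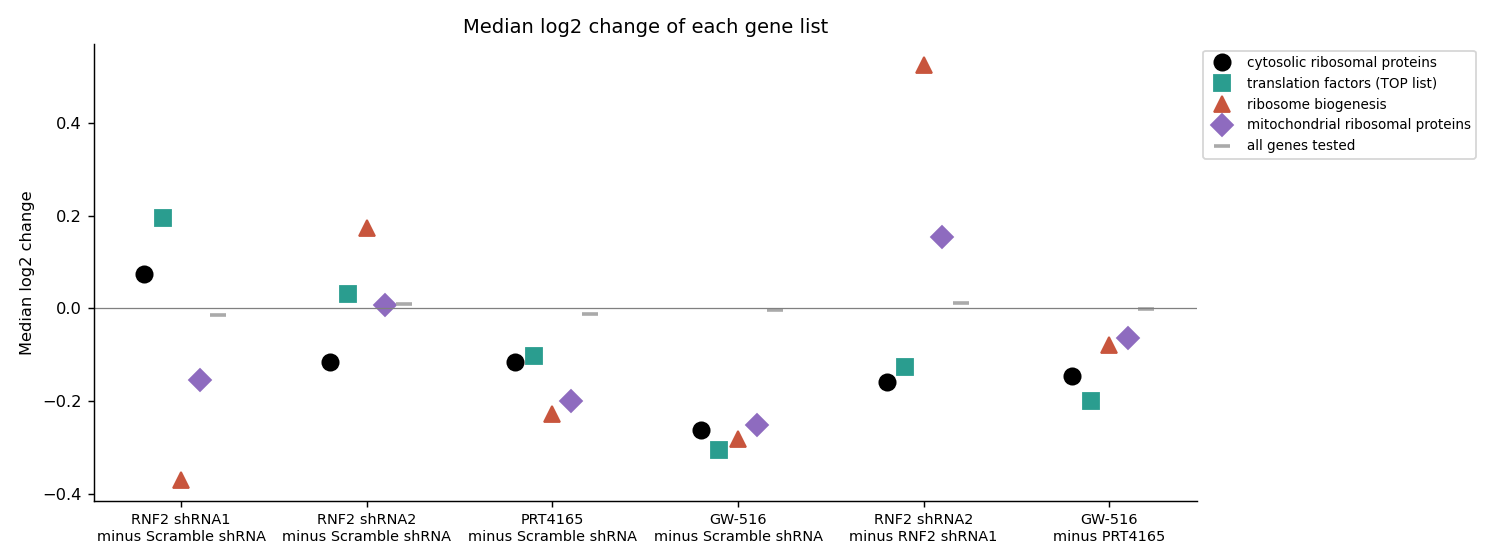
Median log2 change (y axis) of 4 gene lists and of all genes tested in 6 comparisons (x axis). The list drawn as translation factors also holds other genes with TOP mRNAs. The lists lie together below 0 in GW-516 minus Scramble shRNA. Ribosome biogenesis lies at -0.37 in RNF2 shRNA1 and 0.17 in RNF2 shRNA2 minus Scramble shRNA, on the other side of 0 from the ribosomal proteins. The ribosomal protein median in RNF2 shRNA2 minus Scramble shRNA is -0.026 without RNF2 shRNA2 replicate 2.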

How the data were processed

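Per the file headers, the tables deposited by the authors hold raw counts, made with featureCounts 1.4.3-p1 (strand option 2, GENCODE 18) and no option for read pairs, so both reads of a fragment were counted. The submitters' processing notes name hg19 (GRCh37), STAR and DESeq2 1.8.1, with no role for either tool. The exon length per gene was also deposited by the authors.

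Symbols, gene types and principal transcripts came from GENCODE 29, and starts and sequences from RefSeq on GRCh38.p14. edgeR 4.0.16 (R 4.3.3) was fitted to all 10 libraries with TMM scaling, filterByExpr (minimum count 10) and 1 coefficient per group. Quasi-likelihood F tests were two-sided and adjusted by Benjamini and Hochberg over 18478 genes, and a gene was called, and is said to rise or fall, below 0.05. Levels are TMM-scaled CPM. The procedure was tested on simulated data.

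The members and lists were chosen with earlier results of these data known. Named members were the called members without overlap that had the 4 strongest rises and the 4 strongest falls in a comparison, the 5 highest and 5 lowest per length, and RPL5, RPL11, RPLP0, RPS6, RPS19, RPS27L, RPL39L, RPL3L, RPL10L and their partners. From other lists up to 4 genes of smallest adjusted p were eligible. RPLP1, RPLP2, RPSA, RPL5 and RPS4X in some comparisons were chosen after their values were seen. Same-numbered libraries did not deviate together (correlations -0.09 to 0.02). Deviations in the close pairs were little more than sampling noise, so these correlations cannot show whether numbers pair libraries. Results of some members and marker genes that these rules select are not reported here.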

Additional observations from a re-analysis of the deposited data

Results flagged for a closer look

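Some members changed in opposite directions in 2 groups, past the threshold in each, and the difference between the groups also passed the edgeR test. RPL13A fell in the libraries labelled RNF2 shRNA2 (log2 change against Scramble shRNA -0.14) and rose in RNF2 shRNA1 (0.32), a difference of -0.46. RPS15A had -0.27 in RNF2 shRNA2 and 0.18 in RNF2 shRNA1, a difference of -0.46. RPL28 had -0.16 in RNF2 shRNA2 and 0.16 in RNF2 shRNA1, a difference of -0.32. The difference of RNF2 shRNA2 minus RNF2 shRNA1 was -0.30 for RPS3, -0.28 for RPS24, -0.26 for RPL3 and -0.24 for RPL29, each lower in RNF2 shRNA2 and higher in RNF2 shRNA1 than in Scramble shRNA. The 2 libraries labelled RNF2 shRNA2 differ from each other in ribosomal protein level, and the part of that in these differences was not tested. RPS4X fell after GW-516 (-0.17) and rose after PRT4165 (0.11), a difference of -0.27. The rise after PRT4165 lost its call under 3 alternatives, with an edgeR adjusted p of up to 0.16.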

How the results depend on the processing

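No median reversed its direction under any alternative run, nor did any named value called with all libraries. Named values not called with all libraries were not checked for direction. Of the values of named genes under alternatives 1927 stayed on their side of the threshold, 58 gained a call and 132 lost one. Counts below are members. The share of all genes called was taken only for the fits without the libraries labelled RNF2 shRNA2 and with close pairs summed. Counts under the other settings, and with single libraries left out, have no background beside them. RNF2 shRNA1 minus Scramble shRNA: 3 lower at an adjusted p below 0.01; 32 higher with no filter on low counts, with the subunit difference at 0.045; 52 higher and 14 lower with only the groups compared; 11 and 1 with close pairs summed; 46 and 12 without the libraries labelled RNF2 shRNA2. RNF2 shRNA2 minus Scramble shRNA had 43 lower with limma-voom, and 3 higher and 13 lower with pairs summed. PRT4165 minus Scramble shRNA had 0 higher and 18 lower at 0.01, 1 higher with library size only, 1 higher with the replicate block, 4 and 53 with only the groups compared, 0 and 7 with pairs summed, and 4 and 60 without the libraries labelled RNF2 shRNA2. For GW-516 minus Scramble shRNA the median was -0.188 with library size only, and 1 was higher with a 1 CPM filter and 0 with pairs summed. In RNF2 shRNA2 minus RNF2 shRNA1, 1 was higher with pairs summed. In GW-516 minus PRT4165, 1 was higher at 0.01, with DESeq2 and with a 1 CPM filter, and the higher calls did not hold with pairs summed. In that comparison 50 were lower with no filter and 62 with only the groups compared. Without the libraries labelled RNF2 shRNA2 69 were lower, against 25.1% of all genes. The replicate block changed no other count by over 1.5 times. The cause of these moves was not tested.

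With each library left out in turn, the counts of members higher and lower ran from 15 to 45 and 2 to 12 in RNF2 shRNA1, 5 to 19 and 15 to 60 in RNF2 shRNA2, 0 to 4 and 14 to 60 in PRT4165 and 1 to 2 and 43 to 74 in GW-516, each against Scramble shRNA. They ran from 3 to 11 and 28 to 66 in RNF2 shRNA2 minus RNF2 shRNA1, and 0 to 2 and 27 to 69 in GW-516 minus PRT4165. Medians ran from 0.073 to 0.096, -0.214 to -0.026, -0.116 to -0.097, -0.266 to -0.241, -0.277 to -0.078 and -0.161 to -0.13 in the same order. The subunit difference ran from 0.029 to 0.038, -0.063 to -0.003, 0.007 to 0.024, 0.014 to 0.021, -0.086 to -0.052 and -0.046 to -0.013. Where an arm is left with 1 library, it is assumed to vary like the other groups. The highest counts came without RNF2 shRNA2 replicate 1 in most comparisons. Depth limits RPL3L and RPL10L, while the level of RPL36A is uncertain because of its pseudogenes.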

Other observations

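Host genes of small nucleolar RNAs, some of which are known for TOP tracts (3 of 9 with a start held 1 here), were read in the same fit. Of 11, 8 fell and none rose after GW-516 (median log2 change -0.26) and after PRT4165 (median -0.22). Of all genes 29.0% fell and 26.5% rose after GW-516, and 21.7% and 19.9% after PRT4165. In RNF2 shRNA1 cells 6 rose and 3 fell, with GAS5, a growth-arrest RNA, at 0.54 ± 0.04. In the libraries labelled RNF2 shRNA2 3 rose and 1 fell. Of all genes 26.2% rose and 28.6% fell in RNF2 shRNA1, and 21.1% and 21.0% in RNF2 shRNA2. The 8 dedicated ribosomal protein chaperones were read too: 6 fell in RNF2 shRNA1 cells (median -0.28), 5 rose in the libraries labelled RNF2 shRNA2 (median 0.18), 4 fell after PRT4165 and 6 after GW-516.

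Among 12 regulators of ribosomal protein synthesis, 7 fell and 5 rose after GW-516, including LARP1, which binds TOP tracts (-0.35 ± 0.03), and the S6 kinase gene RPS6KB1 (-0.38 ± 0.04). RPS6KB1 changed by -0.37 ± 0.04 after PRT4165, where 5 of the list fell and 3 rose. In the libraries labelled RNF2 shRNA2 8 rose and none fell, with LARP1 at 0.28 ± 0.03. In RNF2 shRNA1 cells 4 rose and 4 fell, with EIF4EBP2, a repressor of initiation, at -0.72 ± 0.03. Of all genes 29.0% fell and 26.5% rose after GW-516, and 21.7% and 19.9% after PRT4165. In RNF2 shRNA1 28.6% of all genes fell and 26.2% rose, and in RNF2 shRNA2 21.0% and 21.1%.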
